A study of Mus musculus with 8 samples.

Results

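The 30 genes described here encode enzymes of cholesterol synthesis, the proteins that sense sterols and set the activity of the transcription factor SREBP2, and proteins of sterol uptake and transport that are known as targets of SREBP2 or of liver X receptors. They were taken by name from the 56884 genes of the count tables. The rule that picks them uses no measured value, but the list was drawn up with earlier results of these data known. The list does not hold every gene of the pathway. All 30 were present, and 28 of them were among the 12412 genes with enough counts to be tested. The remaining 2, Idi1 and Npc1l1, had at most 5 counts in any library.

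Liver RNA was sequenced from 8 female C57BL/6J mice, with 1 library per mouse. The DIO group (3 libraries, replicates 1, 4 and 5) had become obese during 4 months of high-fat feeding (lipids gave 45% of the energy) and stayed on that diet until 18 months of age. In the DIO + DHA group (5 libraries, replicates 1, 2, 4, 5 and 6) the same 4 months were followed by a diet in which 15% of the lipid weight was exchanged for a fish oil concentrate rich in docosahexaenoic acid (DHA, 683.4 mg per g), also until 18 months. Both groups were therefore obese, of the same strain, sex and age, and there was no lean control among them, so each value below compares 2 high-fat diets. The mice had been fasted overnight before the liver was taken. DHA was given as a concentrate that also holds other omega-3 fatty acids, and it took the place of other fat, so adding DHA and removing that fat cannot be told apart.

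Cholesterol is built from acetyl-CoA through mevalonate, isoprenoid diphosphates, squalene and lanosterol, and the liver is one of the main organs that make it. The genes of nearly every step are activated by SREBP2, a transcription factor that is held in the endoplasmic reticulum together with its escort SCAP while sterols are plentiful. INSIG proteins hold the SCAP complex there, and when membrane sterol falls SCAP carries SREBP2 to the Golgi, where it is cut and released to the nucleus. Liver X receptors sense oxysterols and drive the opposite set of genes, those of sterol export and of reduced uptake.

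Total counts ranged from 1723800 in DIO replicate 1, the shallowest library, to 5690347, with a median of 4495644. Levels are given as CPM, that is, counts brought to one common library size with TMM factors, and values of single libraries follow the order of the replicates above. Fragments came mostly from 3′ ends and were not divided by transcript length, so CPM values are compared between libraries and not between genes. Log2FC is the log2 fold change of DIO + DHA over DIO fitted by edgeR, and a gene was called where the quasi-likelihood test gave an adjusted p under 0.05 over all tested genes. Summed CPM of 6 hepatocyte markers was 89569 to 95455 in the DIO libraries and 94185 to 108301 in the DIO + DHA libraries. Of these 6, 2 were called higher and 1 lower. Apoa1 and Ahsg were higher and Fgb lower in the DIO + DHA group, each without overlap. Markers of other tissues differed between the groups. All 13 skeletal muscle markers were higher there, with a summed CPM of 31.8 to 36.1 in the DIO group and 1250 to 1344 in the DIO + DHA group, and 10 squamous epithelium markers summed to 0.563 to 0.902 and 73.7 to 83.9 CPM, with 7 of the 10 at 0 in every DIO library. Adipocyte markers (4 genes) summed to 1.24 to 2.81 and 30.8 to 49.9 CPM. In the DIO + DHA group most of this was Cfd (0.887 to 2.16 and 26.2 to 40.3 CPM), while Adipoq overlapped between the groups. Smooth muscle markers (3 genes) summed to 2.66 to 4.87 and 13.2 to 27.97 CPM, with 1 called higher. In the DIO + DHA group most of this was Des (0.887 to 1.98 and 10.3 to 23.8 CPM), while Myh11 and Cnn1 overlapped. The enterocyte list (4 genes) summed to 738 to 804 and 1784 to 2101 CPM, carried by Apoa4 and Fabp2, which liver also expresses, while Sis was at 0 in every library. In the opposite direction, 6 Kupffer cell markers summed to 328 to 383 CPM in the DIO group and 192 to 229 CPM in the DIO + DHA group, with 4 of the 6 called lower and Marco called higher. Sums were also lower without overlap for stellate cells (4 genes, 245 to 268 and 203 to 229 CPM), endothelial cells (3 genes, 102 to 125 and 72.8 to 95.3 CPM) and T cells (3 genes, 10.6 to 14.6 and 5.71 to 7.64 CPM). Only some of these markers were called lower: 2 of 4 for stellate cells, 1 of 3 for endothelial cells and 1 of 2 tested for T cells. Most of the stellate sum was Dcn, and single markers such as Reln, Stab2 and Pecam1 overlapped. The sums of cholangiocytes and B cells overlapped. The part of these differences in the results below was not tested. In bulk liver, fewer cells of a type and less RNA per cell cannot be told apart.

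The enzymes of cholesterol synthesis that passed the test were all higher in the livers of DHA-fed mice. Of the 28 tested genes, 13 rose, 1 fell and 14 were not called. Among all 12412 tested genes, 7.89% were called higher and 7.28% lower. The 13 that rose were 12 genes of the synthetic route, namely Hmgcs1, Mvd, Fdps, Sqle, Lss, Cyp51, Tm7sf2, Msmo1, Hsd17b7, Sc5d, Dhcr7 and Erg28, together with the sterol sensor Insig2. The gene that fell was Mylip, which encodes a ubiquitin ligase induced by liver X receptors. The Log2FC of the called genes ran from 0.32 for Erg28 to 1.24 for Insig2 among those that rose, and was -0.68 for Mylip.

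The median Log2FC of the 28 tested genes was 0.34, beside 0.00108 over all tested genes, and 27 of the 28 fitted values were above 0, beside 50.1% of all tested genes. The fitted sign turned under at least 1 alternative (another test, the replicate block or a library left out) for 6 genes, Acat2, Ggps1, Lbr, Srebf2, Insig1 and Npc1, none of them called, so their direction is not read here. For 3 of these, Lbr, Insig1 and Npc1, the mean CPM was not higher in the DIO + DHA group. In 15 of the 28 genes every DIO + DHA library was above every DIO library, including all 13 called higher. The share of all tested genes with such a separation was 9.54%. Summed over the 30 genes, CPM was 1234 to 1252 in the 3 DIO libraries and 1657 to 1789 in the 5 DIO + DHA libraries, without overlap between the groups. Insig2 alone made up 12.4 to 14.3% of this sum in the DIO libraries and 20.9 to 23.4% in the DIO + DHA libraries. For the 21 genes of the synthetic route the sums were 865 to 873 CPM and 1103 to 1145 CPM. Leaving 18 tested markers of skeletal muscle and squamous epithelium out of the TMM factors gave the same numbers of calls, 13 higher and 1 lower, and a median of 0.34. This concerns the scaling alone and cannot show what RNA of those tissues added to the counts.

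**Figure D1:**
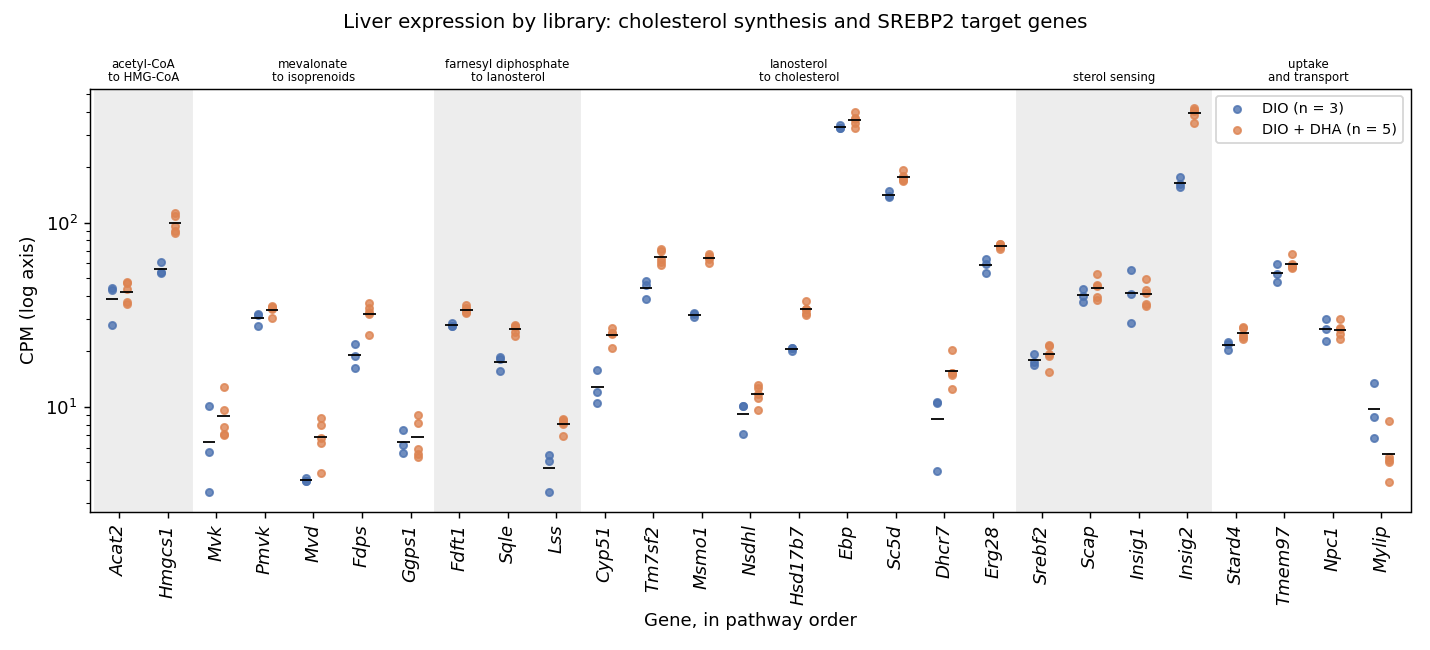
CPM of 27 of the 28 tested genes in each of the 8 liver libraries, in the order of the pathway, on a log axis. Each point is 1 mouse (DIO, n = 3, blue, and DIO + DHA, n = 5, orange) and each bar is a group mean. Lbr is left out because it had 0 counts in a library. The points of Hmgcs1, Msmo1, Hsd17b7 and Insig2 stand in 2 separate clusters, whereas those of Srebf2, Scap, Insig1 and Npc1 are mixed.

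The route from acetyl-CoA to HMG-CoA was represented by 2 genes, of which 1 rose. Hmgcs1 (chr13:120151915-120169796, plus strand, GRCm39), the cytosolic HMG-CoA synthase, was measured at 60.8, 53.9 and 53.1 CPM in the DIO libraries and at 109, 112, 90.3, 96.3 and 87.6 CPM in the DIO + DHA libraries. The lowest DIO + DHA library was above the highest DIO library, and the means were 55.9 ± 4.22 CPM in the DIO group (SD, n = 3) and 98.9 ± 10.9 CPM in the DIO + DHA group (SD, n = 5). The difference was well outside the spread between mice (Log2FC 0.84 ± 0.10 (SE), edgeR adjusted p = 3.1e-10). Acat2, the cytosolic thiolase that makes acetoacetyl-CoA, was measured at 42.8, 27.9 and 44.0 CPM in the DIO libraries and at 35.9, 37.2, 46.7, 43.3 and 47.4 CPM in the DIO + DHA libraries. These groups overlapped and the gene was not called (Log2FC 0.17 ± 0.13 (SE), edgeR adjusted p = 0.45).

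Hmgcs1 was also the only listed gene whose promoter held the 9 letters TCACNCCAC, a form of the sterol regulatory element bound by SREBP proteins, where N is any base. The window searched ran from 250 bases before to 50 bases after the start of the canonical transcript of GENCODE mouse release 39, on both strands. It is shown here because it carries this match together with CCAAT boxes, the sites of NF-Y, a factor that is known to act beside SREBP. The 250 bases before the start (chr13:120151732-120151981, GRCm39, plus strand), written 5′ to 3′ with the TCACNCCAC match and the CCAAT boxes (read ATTGG on the opposite strand) in capitals, were:
Hmgcs1: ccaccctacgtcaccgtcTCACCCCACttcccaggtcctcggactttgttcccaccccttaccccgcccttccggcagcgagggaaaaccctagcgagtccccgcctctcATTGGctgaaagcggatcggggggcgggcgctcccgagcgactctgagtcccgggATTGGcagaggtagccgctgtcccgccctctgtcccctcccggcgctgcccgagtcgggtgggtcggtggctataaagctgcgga
The TCACNCCAC match began 232 bases before the start and the 2 CCAAT boxes 140 and 85 bases before it. Among the promoters of 11268 tested protein-coding genes, 1.3% held TCACNCCAC. Of the 30 listed genes 1 held it, which is 3.33%. CCAAT was in 21 of the 30 promoters (70%) and in 39.5% of all promoters searched. The GC box GGGCGG was in 23 of the 30 (76.7%) and in 57.1% of all. A search that allowed 1 mismatch to TCACNCCAC, added after the values had been seen, matched 13 of the 30 (43.3%) and 25.4% of all. It matched 7 of the 13 genes called higher and 5 of the 14 not called. Such matches describe letters in a window and say nothing about binding in these livers.

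From mevalonate to the isoprenoid diphosphates, 5 of 6 genes could be tested and 2 rose. Fdps (chr3:89000895-89009266, minus strand), which makes farnesyl diphosphate, the branch point toward sterols, dolichol and prenylated proteins, was measured at 16.3, 21.8 and 18.8 CPM in the DIO libraries and at 34.3, 32.8, 36.4, 31.9 and 24.5 CPM in the DIO + DHA libraries. All 5 DIO + DHA libraries were above the 3 DIO libraries (Log2FC 0.70 ± 0.14 (SE), edgeR adjusted p = 0.0001). Mvd (chr8:123160340-123170161, minus strand), the mevalonate diphosphate decarboxylase, was measured at 3.94, 3.97 and 4.08 CPM in the DIO libraries and at 7.93, 4.36, 6.78, 6.32 and 8.74 CPM in the DIO + DHA libraries. The DIO libraries lay close together and the DIO + DHA libraries spread over a wide range above them, with replicate 2 nearest to the DIO group (Log2FC 0.80 ± 0.26 (SE), edgeR adjusted p = 0.026). Mvd had only 7 to 40 counts per library, and its call was lost without DIO replicate 4 (edgeR adjusted p = 0.099), DIO replicate 5 (0.085), DIO + DHA replicate 1 (0.073) or DIO + DHA replicate 6 (0.085), and under DESeq2 (adjusted p = 0.11).

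Mvk, the mevalonate kinase, had a fitted change similar in size to that of Fdps but was not called. It was measured at 10.1, 3.43 and 5.68 CPM in the DIO libraries and at 7.14, 7.04, 12.8, 7.73 and 9.61 CPM in the DIO + DHA libraries. DIO replicate 1 was higher than 4 of the 5 DIO + DHA libraries, so the groups overlapped (Log2FC 0.67 ± 0.26 (SE), edgeR adjusted p = 0.071). Without that library, the shallowest of the 8, Mvk was called (Log2FC 0.93, edgeR adjusted p = 0.0076). Pmvk, the next kinase, and Ggps1, which extends farnesyl to geranylgeranyl diphosphate for protein prenylation, were not called. Pmvk was at 27.6 to 31.7 CPM in the DIO group and 30.2 to 35.4 CPM in the DIO + DHA group (95% interval of the Log2FC -0.11 to 0.35) and Ggps1 at 5.59 to 7.45 CPM in the DIO group and 5.35 to 9.05 CPM in the DIO + DHA group (95% interval -0.40 to 0.52). Idi1, the isopentenyl diphosphate isomerase, was listed with 0 to 5 counts per library and was not tested. The annotation holds 5 Idi1 pseudogenes and only unique alignments were counted, so reads from near-identical stretches may be missing from Idi1, whose level is uncertain here.

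Of the 3 enzymes that turn farnesyl diphosphate into lanosterol, 2 rose. Sqle (chr15:59186926-59203041, plus strand), squalene epoxidase and a rate-limiting enzyme of the sterol branch, was measured at 18.6, 18.2 and 15.6 CPM in the DIO libraries and at 25.4, 27.5, 27.1, 24.4 and 27.7 CPM in the DIO + DHA libraries. The groups did not overlap (Log2FC 0.61 ± 0.14 (SE), edgeR adjusted p = 0.00072). Lss (chr10:76367422-76392972, plus strand), the lanosterol synthase that closes the sterol rings, was measured at 5.06, 3.43 and 5.50 CPM in the DIO libraries and at 6.94, 8.04, 8.56, 8.43 and 8.30 CPM in the DIO + DHA libraries. Its groups were separate too (Log2FC 0.81 ± 0.24 (SE), edgeR adjusted p = 0.014), on 9 to 38 counts per library. The call was lost without DIO replicate 4, the lowest library (Log2FC 0.58, edgeR adjusted p = 0.2), and under DESeq2 (adjusted p = 0.063).

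Fdft1, squalene synthase, which commits farnesyl diphosphate to sterols, was measured at 27.6, 28.3 and 27.5 CPM in the DIO libraries and at 32.5, 34.2, 33.9, 35.6 and 32.1 CPM in the DIO + DHA libraries. Every DIO + DHA library was above every DIO library, yet the change was small and the gene was not called (Log2FC 0.27 ± 0.12 (SE), edgeR adjusted p = 0.12, with a 95% interval of 0.04 to 0.50). On the opposite strand, Ctsb covers all of the last 500 exon bases of Fdft1 and 18.8% of its exon bases in all. Counting ignored strand and left out reads that overlap 2 genes, so 3′ reads of Fdft1 from that stretch were not counted.

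The steps from lanosterol to cholesterol held the most calls, 7 of 10 tested genes, all higher. The largest fitted changes were in the enzymes that remove the methyl groups of lanosterol. Cyp51 (chr5:4131145-4154746, minus strand), the lanosterol 14-alpha demethylase, was measured at 15.8, 10.5 and 12.1 CPM in the DIO libraries and at 25.2, 20.8, 24.97, 25.1 and 26.6 CPM in the DIO + DHA libraries. DIO + DHA replicate 2 was the lowest of its group and still above all DIO libraries (Log2FC 1.03 ± 0.16 (SE), edgeR adjusted p = 5.5e-07). Akap9 on the opposite strand covers 33.2% of the last 500 exon bases of Cyp51, where reads were not counted. Msmo1 (chr8:65171173-65186826, minus strand), the methylsterol monooxygenase that acts at the 4 position, was measured at 32.1, 32.1 and 30.5 CPM in the DIO libraries and at 63.3, 65.7, 67.1, 64.6 and 60.5 CPM in the DIO + DHA libraries. Its coefficient of variation was 2.86% in the DIO group and 3.91% in the DIO + DHA group, so that the 2.04-fold difference stood far outside the spread (Log2FC 1.03 ± 0.10 (SE), edgeR adjusted p = 7e-12). Nsdhl, the dehydrogenase of the same demethylation complex, was not called at 7.10 to 10.1 CPM in the DIO group and 9.61 to 13.2 CPM in the DIO + DHA group (Log2FC 0.38 ± 0.19 (SE), edgeR adjusted p = 0.21).

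Hsd17b7 (chr1:169777104-169796810, minus strand), the 3-ketosteroid reductase that completes each round of demethylation, was measured at 20.8, 20.01 and 20.9 CPM in the DIO libraries and at 33.9, 31.5, 32.1, 33.7 and 37.6 CPM in the DIO + DHA libraries. The 3 DIO libraries were within 1 CPM of each other and all 5 DIO + DHA libraries were higher (Log2FC 0.72 ± 0.13 (SE), edgeR adjusted p = 1.2e-05). Erg28 (chr12:85862222-85871324, minus strand), a membrane scaffold known to tether the demethylation enzymes, was measured at 53.4, 59.9 and 63.0 CPM in the DIO libraries and at 73.8, 74.4, 76.0, 76.3 and 71.4 CPM in the DIO + DHA libraries. The shift was smaller but the groups did not overlap (Log2FC 0.32 ± 0.09 (SE), edgeR adjusted p = 0.01).

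The Hsd17b7 promoter is shown because it had no full TCACNCCAC match but held 2 matches with 1 mismatch between CCAAT boxes. This choice was made after the values had been seen. The 250 bases before the start (chr1:169796814-169797063, GRCm39, minus strand), 5′ to 3′, with both kinds of match in capitals on either strand, were:
Hsd17b7: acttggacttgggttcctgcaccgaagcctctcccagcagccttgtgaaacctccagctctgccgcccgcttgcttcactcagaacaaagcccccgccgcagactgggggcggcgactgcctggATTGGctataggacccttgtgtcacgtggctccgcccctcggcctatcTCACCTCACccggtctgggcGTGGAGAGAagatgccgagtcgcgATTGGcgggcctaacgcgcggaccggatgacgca
The matches with 1 mismatch began 78 and 58 bases before the start and the CCAAT boxes 126 and 34 bases before it.

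Tm7sf2 (chr19:6112851-6118403, minus strand), a sterol delta-14 reductase, was measured at 38.3, 45.8 and 48.4 CPM in the DIO libraries and at 70.4, 63.7, 61.4, 59.0 and 71.6 CPM in the DIO + DHA libraries. The lowest DIO + DHA library exceeded the highest DIO library (Log2FC 0.53 ± 0.10 (SE), edgeR adjusted p = 5.1e-05). Lbr, the lamin B receptor, which has the same reductase activity at the nuclear envelope, had 0 to 11 counts per library and was not called (Log2FC 0.35 ± 0.75 (SE), edgeR adjusted p = 0.84). The 95% interval of its Log2FC ran from -1.11 to 1.82, so a difference of either sign was not detectable at this depth. Of its last 500 exon bases, 88% are shared with other genes.

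The last reactions were split. Sc5d (chr9:42162891-42175552, minus strand), the lathosterol oxidase, was measured at 148, 137 and 139 CPM in the DIO libraries and at 178, 192, 175, 170.3 and 168 CPM in the DIO + DHA libraries. Its change was modest and its groups separate (Log2FC 0.32 ± 0.08 (SE), edgeR adjusted p = 0.0014). Dhcr7 (chr7:143376882-143402147, plus strand), the 7-dehydrocholesterol reductase that makes cholesterol itself, was measured at 4.50, 10.5 and 10.6 CPM in the DIO libraries and at 14.9, 20.4, 15.3, 15.2 and 12.4 CPM in the DIO + DHA libraries. DIO replicate 1 was far below the other 2 DIO libraries, and the lowest DIO + DHA library was still above all 3 (Log2FC 0.69 ± 0.19 (SE), edgeR adjusted p = 0.0064). In DIO replicate 1 that value rested on 8 counts. Ebp, the sterol isomerase acting before Sc5d, was measured at 325, 339 and 327 CPM in the DIO libraries and at 371, 327, 365, 349 and 399 CPM in the DIO + DHA libraries. DIO + DHA replicate 2 lay within the DIO range, and the gene was not called (Log2FC 0.13 ± 0.07 (SE), edgeR adjusted p = 0.24). The 95% interval of its Log2FC was -0.01 to 0.27.

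**Figure D2:**
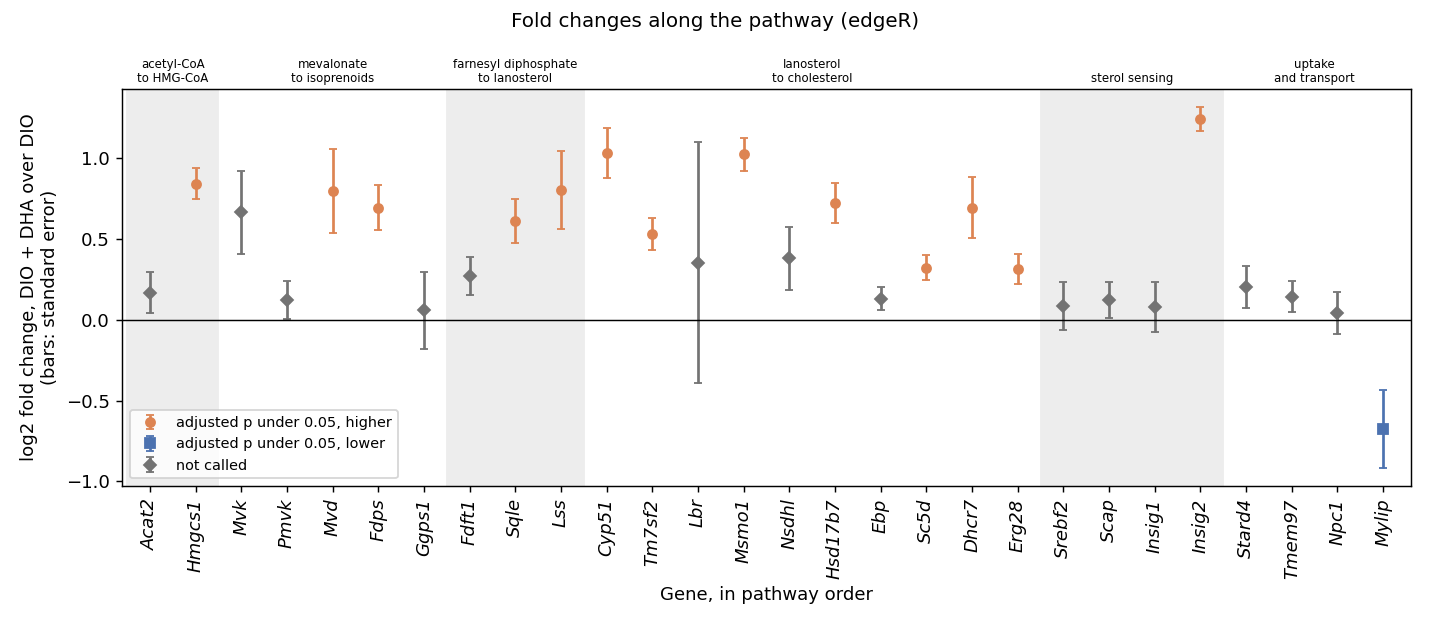
Log2 fold change of DIO + DHA over DIO for the 28 tested genes in pathway order, as fitted by edgeR, with bars of 1 standard error. Circles (orange) were called higher, the square (blue) lower, and diamonds (grey) were not called at an adjusted p under 0.05. All 20 tested genes of the synthetic route are above 0, with Insig2 at 1.24 the highest value and Mylip at -0.68 the only one below 0.

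Over the synthetic route as a whole, 12 of 20 tested genes were called, all higher, and the median Log2FC was 0.57. The steps before lanosterol gave 5 calls among 10 tested genes with a median of 0.64, and those after it 7 among 10 with a median of 0.46. The 8 genes not called were not shown to be unchanged. Their fitted Log2FC ran from 0.06 for Ggps1 to 0.67 for Mvk. No mouse was highest throughout. Among the 13 genes called higher, DIO + DHA replicate 6 was the highest library of its group for 6 genes and the lowest for 6, and DIO replicate 1 was the lowest of its group for 6 and the highest for 4. For the same 13 genes, the median of the log2 ratio to the DIO mean was 0.70 to 0.80 in the 5 DIO + DHA libraries and -0.01 to 0.02 in the 3 DIO libraries. This separation follows from picking genes by their call. Over all 28 tested genes, with a small constant added to both CPM values, the median was 0.29 to 0.34 in the DIO + DHA libraries. In the DIO libraries it was -0.013 to 0.002. For both sets of genes the DIO mean was taken over these same 3 libraries. DIO medians near 0 follow from that and do not measure how alike the DIO mice were.

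Of the 4 sensing genes, Insig2 rose and the other 3 were not called. Srebf2, which encodes SREBP2 itself, was measured at 16.9, 19.3 and 17.6 CPM in the DIO libraries and at 18.8, 21.4, 19.3, 15.5 and 21.6 CPM in the DIO + DHA libraries. The groups overlapped almost fully (Log2FC 0.09 ± 0.15 (SE), edgeR adjusted p = 0.79, 95% interval -0.21 to 0.38). Scap, its escort, was measured at 37.1, 40.0 and 43.5 CPM in the DIO libraries and at 46.0, 39.5, 45.0, 37.9 and 52.6 CPM in the DIO + DHA libraries and was not called (Log2FC 0.12 ± 0.11 (SE), edgeR adjusted p = 0.55, 95% interval -0.09 to 0.34). These are transcript levels, and the cleavage that activates SREBP2 was not measured here.

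Insig1 and Insig2 encode the proteins that retain the SCAP complex in the endoplasmic reticulum. Insig1 is known as a strong target of SREBP2, and was measured at 55.1, 28.3 and 40.8 CPM in the DIO libraries and at 43.0, 49.3, 35.3, 41.7 and 36.0 CPM in the DIO + DHA libraries. The lowest and the highest of all 8 values were both DIO libraries, so the groups overlapped (Log2FC 0.08 ± 0.16 (SE), edgeR adjusted p = 0.82). Its 95% interval was -0.23 to 0.39. Insig2 (chr1:121232082-121260318, minus strand) has a liver transcript that is known to be repressed by insulin and raised by fasting. It was measured at 155, 176 and 162 CPM in the DIO libraries and at 400.5, 408, 385, 346 and 419 CPM in the DIO + DHA libraries. The means were 164 ± 10.6 CPM in the DIO group (SD, n = 3) and 392 ± 28.1 CPM in the DIO + DHA group (SD, n = 5), without overlap. The change was 2.37-fold and had the smallest p-value of the list (Log2FC 1.24 ± 0.08 (SE), edgeR adjusted p = 3.8e-20). In the DIO libraries Insig2 had 2.82 to 6.22 times the CPM of Insig1, and in the DIO + DHA libraries 8.27 to 11.6 times. CPM is not compared between genes here, so only the difference of these ratios between libraries can be read. The pair was chosen after the values had been seen, so the ratio was not tested.

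**Figure D3:**
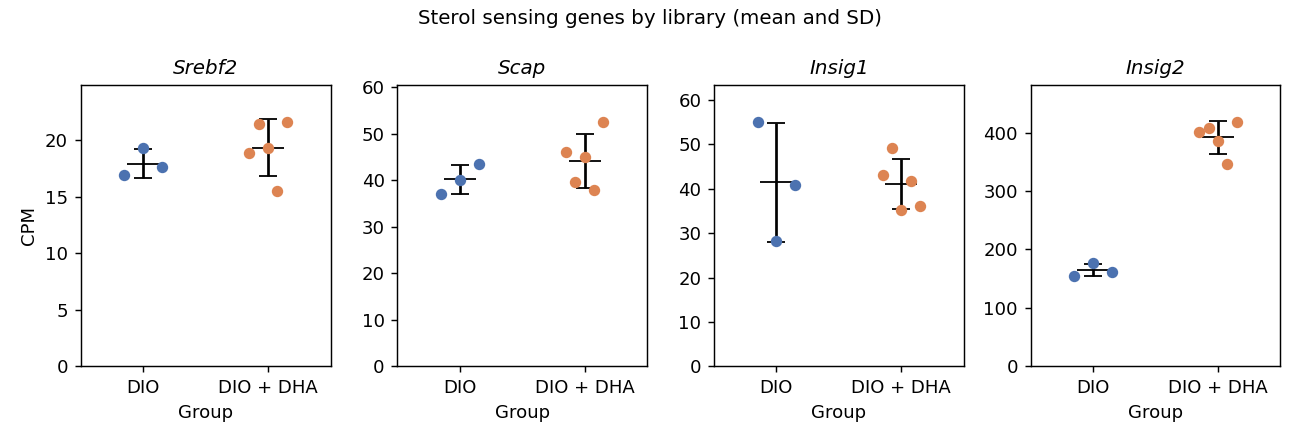
CPM of the 4 sterol sensing genes in each liver library, on linear axes from 0, by group. Points are mice (DIO, n = 3, and DIO + DHA, n = 5), long bars are means and short bars the SD. Insig2 has a mean of 164 CPM in the DIO group and 392 CPM in the DIO + DHA group without overlap, whereas Srebf2, Scap and Insig1 overlap.

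The 250 bases before the canonical start of each are shown because one of the pair was called and the other was not, a choice made after the values had been seen. They are GRCm39 chr5:28276077-28276326 on the plus strand and chr1:121255795-121256044 on the minus strand, written 5′ to 3′ with CCAAT boxes and matches to TCACNCCAC with up to 1 mismatch in capitals on either strand:
Insig1: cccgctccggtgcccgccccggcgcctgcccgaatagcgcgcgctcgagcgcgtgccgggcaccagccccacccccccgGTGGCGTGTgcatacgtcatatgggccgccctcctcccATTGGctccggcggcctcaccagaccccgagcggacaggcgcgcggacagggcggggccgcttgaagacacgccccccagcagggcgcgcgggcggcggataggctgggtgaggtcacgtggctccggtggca
Insig2: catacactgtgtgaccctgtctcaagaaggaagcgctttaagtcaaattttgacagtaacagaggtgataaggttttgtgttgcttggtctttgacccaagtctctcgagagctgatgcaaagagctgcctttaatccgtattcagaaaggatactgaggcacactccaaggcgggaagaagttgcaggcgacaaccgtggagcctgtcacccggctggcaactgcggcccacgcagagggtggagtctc
Insig1 held a CCAAT box 133 bases before its start and a match with 1 mismatch 171 bases before it. In the 250 bases before the Insig2 start none of these letters occurred, and its one match with 1 mismatch lay 31 bases into the transcript. The canonical Insig2 start lies inside the annotated gene, and 3′ counts do not tell which start was used.

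The genes of uptake and transport gave 1 call among 4 tested genes. Mylip (chr13:45543218-45565498, plus strand) encodes a ligase that marks lipoprotein receptors for degradation and is a target of liver X receptors. It was measured at 13.5, 8.84 and 6.74 CPM in the DIO libraries and at 5.36, 8.38, 3.92, 5.15 and 5.02 CPM in the DIO + DHA libraries. The DIO + DHA mean was lower (Log2FC -0.68 ± 0.24 (SE), edgeR adjusted p = 0.045), but DIO + DHA replicate 2 lay within the DIO range. The counts were 11 to 49 per library, and the call did not survive leaving out DIO replicate 1 (Log2FC -0.49, edgeR adjusted p = 0.23), DIO replicate 4 (0.14), or any of DIO + DHA replicates 1, 4, 5 and 6 (0.072 to 0.096). Under DESeq2 and limma-voom it was not called either (adjusted p = 0.11 and 0.061).

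Stard4, a soluble sterol carrier, was measured at 20.3, 22 and 22.4 CPM in the DIO libraries and at 23.4, 26.8, 24.6, 27.2 and 24.02 CPM in the DIO + DHA libraries. The groups were separate but the gene was not called (Log2FC 0.20 ± 0.13 (SE), edgeR adjusted p = 0.36). Tmem97, an endoplasmic reticulum protein that binds sterols and NPC1, was at 47.8 to 59.4 CPM in the DIO group and 57.0 to 67.2 CPM in the DIO + DHA group and was not called (Log2FC 0.14 ± 0.10 (SE), edgeR adjusted p = 0.38). Npc1, which exports cholesterol from lysosomes, was measured at 29.8, 22.7 and 26.3 CPM in the DIO libraries and at 29.95, 24.8, 26.4, 23.2 and 26.6 CPM in the DIO + DHA libraries and was not called (Log2FC 0.04 ± 0.13 (SE), edgeR adjusted p = 0.89, 95% interval -0.21 to 0.30). Of the last 500 exon bases of Npc1, 38.4% are shared with antisense genes. Npc1l1, the sterol uptake transporter of the intestine, had 1 count in each of 2 DIO + DHA libraries and 0 in the other 6 libraries, where a count of 0 allows up to 3 counts, and no fold is given.

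Other genes of sterol and isoprenoid metabolism are read against the 7.89% of all tested genes called higher and the 7.28% called lower. Of 14 genes of the endoplasmic reticulum that process SREBP or degrade sterol enzymes (proteases, ubiquitin ligases and their cofactors, such as Mbtps1 and Erlin1), edgeR, DESeq2 and limma-voom called 0, and 0 had an unadjusted edgeR p under 0.05. Their median Log2FC was -0.03. Among 14 tested genes of the isoprenoid branches (protein prenylation, dolichol and ubiquinone), 0 rose, with 1 higher at an unadjusted edgeR p under 0.05 and 0 by DESeq2 or limma-voom, and 1 fell. This was Icmt, the methyltransferase that finishes prenylated proteins (Log2FC -0.89 ± 0.27 (SE), edgeR adjusted p = 0.013), whose call was lost without DIO replicate 5 (edgeR adjusted p = 0.077) and under DESeq2 (adjusted p = 0.061).

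Among 24 genes of sterol transport and storage, 1 rose and 5 fell, with a median Log2FC of -0.02. Lipa, the lysosomal acid lipase that frees cholesterol from its esters, was measured at 83.8, 79.3 and 78.8 CPM in the DIO libraries and at 125, 124, 118, 123 and 129 CPM in the DIO + DHA libraries without overlap between the groups (Log2FC 0.63 ± 0.08 (SE), edgeR adjusted p = 2.3e-08). Soat2, the enzyme that esterifies cholesterol in hepatocytes for storage and secretion, was measured at 30.4, 28.5 and 26.6 CPM in the DIO libraries and at 18.1, 18.1, 20.7, 16.2 and 17.3 CPM in the DIO + DHA libraries, also without overlap (Log2FC -0.65 ± 0.13 (SE), edgeR adjusted p = 0.0002). Lipa and Soat2 thus moved in opposite directions. Lower as well were Osbpl9, an oxysterol-binding protein (Log2FC -0.48 ± 0.12 (SE), edgeR adjusted p = 0.0022), and Lrp1, a lipoprotein receptor (Log2FC -0.40 ± 0.10 (SE), edgeR adjusted p = 0.0044), whose groups overlapped in both cases. The remaining lower calls, named after their values had been seen, were Nr1h2, the liver X receptor beta (Log2FC -0.54 ± 0.16 (SE), edgeR adjusted p = 0.011), and its target Abcg1, a sterol exporter (Log2FC -0.84 ± 0.28 (SE), edgeR adjusted p = 0.029). Related genes of this list, also named later, were not called. They were Nr1h3, the liver X receptor alpha (Log2FC -0.006), and the sterol exporters Abca1 (0.11), Abcg5 (0.03) and Abcg8 (0.26). The Osbpl9 call was lost without DIO replicate 4 (edgeR adjusted p = 0.19), that of Nr1h2 without DIO replicate 4 (0.075) or 5 (0.1), and that of Abcg1 without DIO replicate 5 (0.39) or DIO + DHA replicate 1 (0.064) or 4 (0.058). Under DESeq2 neither Nr1h2 (adjusted p = 0.056) nor Abcg1 (adjusted p = 0.13) was called. Kupffer cells also express Abcg1 and Lrp1, and 4 of the 6 Kupffer markers were lower in the same libraries, with Marco higher. Their part in these calls was not tested.

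Fatty acid synthesis with elongation and desaturation, driven mainly by the related factor SREBP1c, served for comparison. Of 16 genes, 6 were higher and 1 lower, beside 7.89% and 7.28% of all tested genes, with a median Log2FC of 0.23. Scd1, the stearoyl-CoA desaturase (Log2FC 1.30 ± 0.07 (SE), edgeR adjusted p = 6.9e-23), Elovl5, a polyunsaturated fatty acid elongase (Log2FC 0.99 ± 0.08 (SE), edgeR adjusted p = 4.3e-16), and Fads2, the delta-6 desaturase (Log2FC 0.29 ± 0.07 (SE), edgeR adjusted p = 0.0014), rose. The remaining higher calls, named after their values had been seen, were the elongase Elovl6 (Log2FC 0.57), the desaturase Fads1 (0.29) and the fatty acid synthase Fasn. Fasn changed little (Log2FC 0.34 ± 0.11 (SE), edgeR adjusted p = 0.027). Its call was lost under DESeq2 (adjusted p = 0.088) and in 4 of 8 fits that left out 1 library. Acly, Acss2, Acaca, Acacb, Me1 and Gpam, also named later, were not called. Thrsp, a regulator of lipogenesis, fell (Log2FC -0.69 ± 0.08 (SE), edgeR adjusted p = 1.4e-10). Srebf1 was not called (Log2FC -0.36 ± 0.16 (SE), edgeR adjusted p = 0.12). The difference between the cholesterol and the fatty acid lists was not tested.

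**Figure D4:**
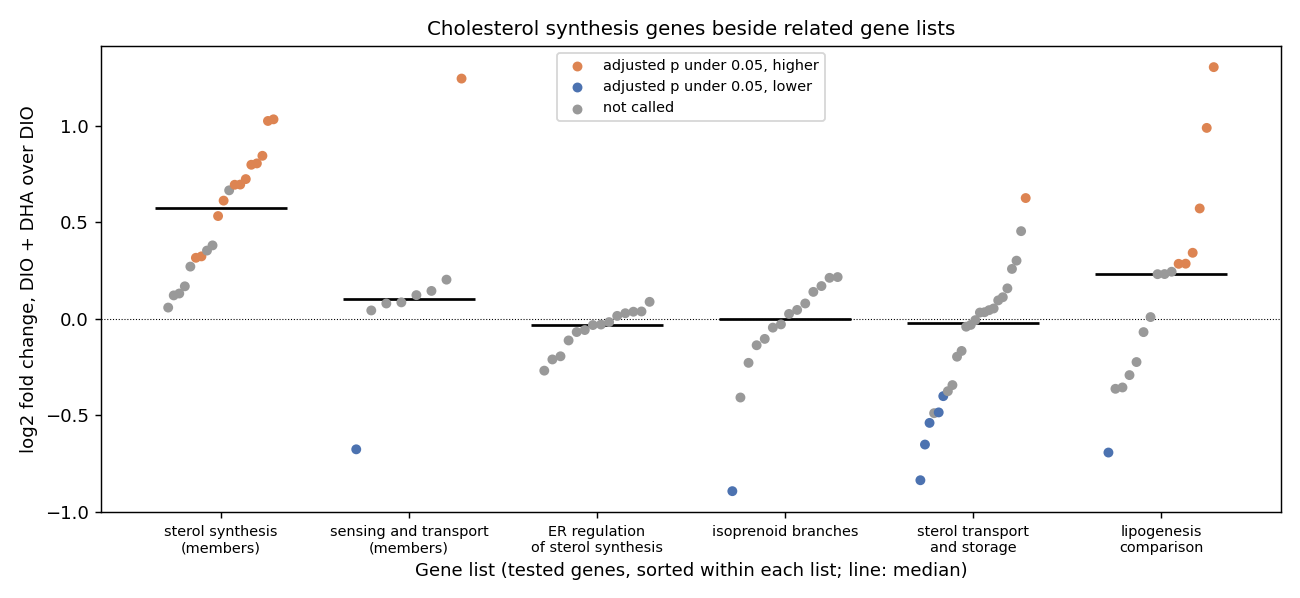
Log2 fold change of DIO + DHA over DIO for the tested genes of the cholesterol list (synthetic route, n = 20, and sensing and transport, n = 8) and of 4 related lists, sorted within each list. Each point is 1 gene, the black line is the median, and colour gives the edgeR call at an adjusted p under 0.05. The median is 0.57 for the synthetic route, -0.03 for ER regulation, -0.02 for sterol transport and storage, and 0.23 for lipogenesis.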

How the data were processed

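Poly(A) RNA of 8 mouse livers was sequenced after a 3′-enriched, barcoded cDNA synthesis with molecular identifiers. The submitters' processing notes name FastQC 0.11.8, STAR 2.7.9a and featureCounts 1.6.0. The authors aligned trimmed reads to GRCm39, counted them on exons of GENCODE mouse release 33, and deposited whole-number counts per gene without normalization. The 8 counting commands gave no option for strand, for overlapping genes or for reads with several alignments. Whether identifiers were collapsed is not stated in the sources used here. Limits drawn from counts cover counting error only and may therefore be too narrow. Groups and replicate numbers came from the sample titles, which number individual mice.

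Gene names came from GENCODE mouse release 39. Genes were left out if, in both groups, over 50% of the libraries had under 5 counts, which kept 12412 genes. After TMM scaling, counts were tested by quasi-likelihood in edgeR 4.0.16 in R 4.3.3 (robust, two-sided), with Benjamini-Hochberg adjustment over all tested genes and a threshold of 0.05. The common biological coefficient of variation was 0.0801. The 95% intervals of fitted values use the SE of the edgeR fit, which includes variation between mice, and assume a normal error. The code was tested on simulated data. The listed genes and all comparison lists were chosen with earlier results of these data known, so no test over a list was made. All 30 genes were accounted for, called genes were given with their values in all 8 libraries, and at most 4 called genes per other list, those with the smallest p, were named, apart from those marked as named later. Promoter letters were read from the GRCm39 genome.

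Alternatives were other scalings, limma-voom (limma 3.58.1), DESeq2 1.42.0 (Wald test), other filters, non-robust dispersions, the replicate number as a block and leaving out each library. Some genes are not reported here. Serum, histology and PCR measurements were not analysed here.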

Additional observations from a re-analysis of the deposited data

Results flagged for a closer look

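In the DIO + DHA group, the highest and the lowest value of each of the 28 tested genes were compared with the nearest other library by Dixon's rule for 5 samples at the 95% level. Chance alone flags about 1 in 20 groups. It marked 2 values. Cyp51 was at 20.8 CPM in DIO + DHA replicate 2, below the other 4 libraries of that group, and still above the highest DIO library at 15.8 CPM. Tmem97 was at 67.2 CPM in DIO + DHA replicate 1, above the others, and this gene was not called. The DIO group, with 3 libraries, is too small for the rule.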

How the results depend on the processing

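Of the 13 genes called higher, 8 kept the call in all 19 alternatives and 11 in all 8 fits that left out 1 library, and no called gene turned its direction. Of 152 recomputed summary values, 128 stayed within 1.5 times the reported count, or for the median within 1 SD of the libraries. The rule of limma-voom with B above 0 called 860 genes in place of 1883, 8 listed genes higher in place of 13, 2 lipogenesis genes higher in place of 6 and 1 other sterol or isoprenoid gene lower in place of 6. The single lower call, Mylip, became 0 under DESeq2, limma-voom by either rule, no filter and non-robust dispersions. DESeq2 gave 3 other sterol genes lower. A minimum of 10 counts in every library left 24 listed genes, with a median Log2FC of 0.29. Leaving out each library gave 1432 to 1859 genes called, 11 to 14 listed genes higher, 0 to 1 lower, medians of 0.30 to 0.39, 3 to 7 other sterol genes lower and 1 in every fit higher, and 5 to 6 lipogenesis genes higher and 1 to 2 lower. Of these fits, leaving out DIO replicate 5 gave the 3 other sterol genes lower, and leaving out DIO + DHA replicate 6 the 2 lipogenesis genes lower. The cause of these changes was not tested.

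Replicate numbers 1, 4 and 5 occur in both groups. Deviations of same-numbered libraries from their group means correlated at -0.0135 to -0.0111, and those of other pairs at -0.0593 to 0.0621. These values gave no sign of pairing by number, but 3 same-numbered pairs are too few to exclude it. A block on the number also takes libraries whose number occurs in 1 group only out of the diet comparison. With the replicate number as a block, 1538 genes were called, 1420 of them shared with the reported calls, with 12 listed genes higher and 1 lower, a median Log2FC of 0.33 and 3 other sterol genes lower. Among the listed genes the block changed the call of Mvd alone (edgeR adjusted p = 0.083), and among the other sterol genes those of Icmt (0.057), Nr1h2 (0.12) and Abcg1 (0.072).

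Depth limited genes with few counts. Lbr (0 to 11 counts), Idi1 and Npc1l1 allow no statement, and Mvd, Lss, Dhcr7 and Mylip were called on at most 75 counts per library.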
